A study of Homo sapiens with 6 samples.

Results

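The genes of the mitochondrial genome were taken as every row of the deposited table placed on chromosome MT, which gave 37 of 61806 genes. By their symbols they are 13 messenger RNA genes (MT-ND, MT-CO, MT-ATP and MT-CYB), 2 ribosomal RNA genes (MT-RNR) and 22 transfer RNA genes (MT-T). Their RNA was sequenced in 6 libraries of 293T, a human cell line derived from embryonic kidney and easily transfected. In 3 libraries the cells had received a plasmid labelled GFP-812 and in the other 3 a plasmid labelled GFP, the usual abbreviation of green fluorescent protein. Both plasmids were delivered with the lipid reagent Lipo2000. The labels name no promoter, no time after transfection and no meaning for the number in GFP-812, and the series title concerns truncated NEK1, a protein kinase, and ribosomal RNA biogenesis. The labels do not state whether replicates were separate cultures, so every p-value here rests on library-to-library spread that may be technical. Replicate values are printed in the order 1, 2, 3 throughout, GFP-812 first.

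Human mitochondria carry a small circular genome that is transcribed from both strands into long precursors. Most messenger and ribosomal RNAs in it are separated by transfer RNAs, and excision of the transfer RNAs releases the RNAs on either side. The messenger RNAs encode core subunits of the respiratory chain and of ATP synthase, the ribosomal RNAs form the mitochondrial ribosome, and the transfer RNAs serve its translation. Short poly(A) tails are added to nearly all of the messenger RNAs inside the organelle, MT-ND6 being the known exception. The libraries were made from RNA captured on oligo(dT) beads, so the level of a mitochondrial RNA here depends on its tail as well as on its abundance. In bulk RNA, fewer mitochondrial genomes and less RNA per genome cannot be told apart.

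Total counts were 14255148 to 17613814 per library. NEK1, the check of the labels, stood at 493.7 to 562.7 FPKM in the GFP-812 libraries and at 3.82 to 3.99 FPKM in the GFP libraries. FPKM scales a count by the length of the gene and the total of the library. Pairs of GFP-812 replicates differed by 2.1 to 2.29 times the sampling noise (chi-square per degree of freedom). Pairs of GFP replicates differed more, by 2.98 to 3.77 times. No library was thus a copy of another. Of 7 epithelial and kidney markers, 3 reached 1 FPKM in a library (KRT8, KRT18 and EPCAM), while PAX8 stayed at or under 0.04 FPKM and CDH1 at 0.53 to 0.74 FPKM. Their summed level was 27.2 to 30.1 FPKM with GFP-812 and 26.3 to 26.7 FPKM with GFP, without overlap, and its part in the results was not tested. Of 13 markers of other cell types only COL1A1 reached 1 FPKM, and HBB had no count. The summed level of these 13 was 3.07 to 3.59 FPKM in the GFP-812 libraries and 2.65 to 3.33 FPKM in the GFP libraries.

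The mitochondrial genes were the most abundant in the libraries. They took 3.85% to 4.03% of all counts, and 16 of the 20 genes with the highest mean FPKM were mitochondrial. All 13 messenger RNAs, both ribosomal RNAs and 1 transfer RNA, MT-TP, made up these 16. MT-TP is 68 bases long and held 0.21% of the mitochondrial counts, so its place rests on the division by length. The subunits of cytochrome c oxidase, which passes electrons to oxygen, stood highest. MT-CO2 (position 7586 to 8269 of the mitochondrial chromosome, hg38, plus strand) had a mean of 6079.6 FPKM over the 6 libraries and MT-CO1 (5904 to 7445, plus strand) one of 6066 FPKM. These genes could not be ordered, since MT-CO2 was above MT-CO1 in 2 of 6 libraries. MT-CO3 (9207 to 9990, plus strand) followed at 4574 FPKM and MT-ND4 (10760 to 12137, plus strand), a membrane subunit of complex I, at 4322 FPKM, in that order in 5 of 6 libraries. MT-ATP6, the proton channel subunit of ATP synthase, was at 3333 FPKM and MT-CYB, the core of complex III, at 1894 FPKM. With MT-RNR2, the large-subunit ribosomal RNA, at 2745 FPKM between these genes, none of the 6 libraries broke this part of the order.

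The remaining messenger RNAs lay close together. MT-ND3, MT-ND4L, MT-ATP8, MT-ND2, MT-ND1, MT-ND6 and MT-ND5 had means of 1599.8, 1509, 1502, 1382, 1253, 1119.8 and 1099 FPKM. The ranges over libraries overlapped for each neighbouring pair among these 7 messenger RNAs, MT-RNR1 and MT-TP. MT-CO2 was thus 5.53 times as abundant per length as MT-ND5, the lowest messenger RNA, although both lie on the plus strand. MT-ND6 (14149 to 14673), the one messenger RNA gene on the minus strand, stood at 99.7%, 107.7% and 103.7% of MT-ND5 with GFP-812 and at 90.4%, 106.3% and 104.8% with GFP. Whether the counting used strand is not given in the sources used here, so antisense reads over MT-ND6 cannot be told apart from its own. Across the 6 libraries the coefficient of variation ran from 2.72% for MT-ATP6 to 9.04% for MT-ATP8.

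**Figure D1:**
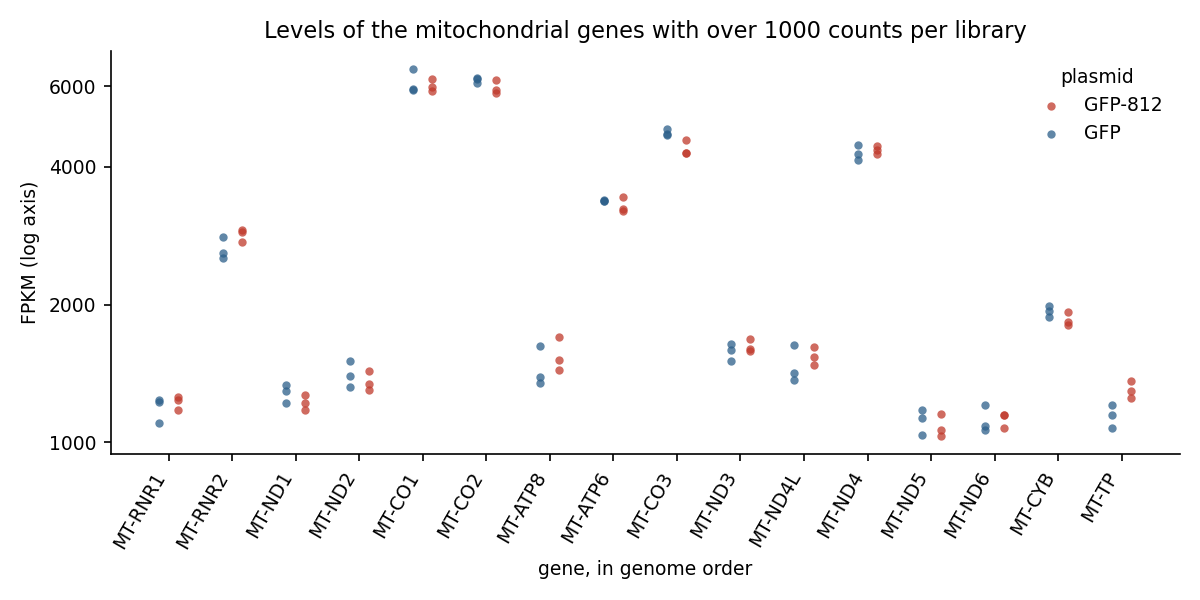
FPKM (log axis) of the 16 mitochondrial genes with at least 1177 counts in every library, in genome order, with 1 point per library in red for GFP-812 and blue for GFP. Levels span from about the 1099 FPKM mean of MT-ND5 to the 6079.6 FPKM mean of MT-CO2, and the colours overlap for most genes.

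The ends of the messenger RNAs have a known link to their tails. Of the 13 coding genes, 6 have a length that is not a multiple of 3 and stop on part of a stop codon, which the first bases of the poly(A) tail complete to TAA. The last 15 bases of these 6 genes, from the GENCODE 29 transcripts (GRCh38) and read 5′ to 3′ on the plus strand, are shown because they tie these RNAs to polyadenylation, the step the oligo(dT) capture also relies on. Capitals mark the partial stop codon.
MT-ND1: tccccctcaaaccTA
MT-ND2: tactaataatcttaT
MT-CO3: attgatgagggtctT
MT-ND3: tagactgaaccgaaT
MT-ND4: ccgggttttcctctT
MT-CYB: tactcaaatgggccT
The other 7 end on whole codons, 3 on TAA, 2 on TAG and 2 on AGA or AGG (MT-CO1 and MT-ND6). The 6 genes with a partial stop had no shared direction between the groups, since MT-ND3 and MT-ND4 were fitted above 0 and the other 4 below 0.

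Messenger RNAs also overlap each other, which affects how reads are assigned. MT-ATP8 (8366 to 8572) shares its last 46 bases with the start of MT-ATP6 (8527 to 9207), and MT-ND4L (10470 to 10766) shares its last 7 bases with the start of MT-ND4. Each pair is known to be translated from a single RNA. The shared bases are in capitals, with 6 bases on either side.
MT-ATP8 and MT-ATP6: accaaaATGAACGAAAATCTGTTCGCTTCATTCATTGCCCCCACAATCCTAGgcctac
MT-ND4L and MT-ND4: actccaATGCTAAaactaa
MT-ATP8 was listed at 49.4%, 44.4% and 47.1% of the FPKM of MT-ATP6 with GFP-812 and at 41.0%, 48.2% and 40.2% with GFP. MT-ND4L was listed at 35.4%, 33.3% and 37.9% of MT-ND4 in the GFP-812 libraries and at 33.0%, 36.5% and 33.3% in the GFP libraries. Both ratios overlapped between the groups. How reads in the shared bases were assigned is not given in the sources used here, and the short gene of each pair is the more uncertain. MT-ATP6 also ends on the base where MT-CO3 starts, position 9207.

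The comparison asks whether RNA of the mitochondrial genome differed between cells given GFP-812 and cells given GFP. It was tested with edgeR's quasi-likelihood test on raw counts over 16834 genes, with Benjamini-Hochberg adjustment. Among the 37 genes 16 passed the filter on low counts and 21, all transfer RNA genes, did not. Of the 16 tested, 2 rose in GFP-812 cells and 0 fell, against 1.18% of all genes tested that rose and 2.67% that fell. The risen genes were MT-RNR2 and MT-TP. At an unadjusted p under 0.05 there were 4 of the 16, against 16.1% of all genes tested. DESeq2 called 2 risen and 1 fallen. No mitochondrial gene rose in the fit without GFP-812 replicate 2, GFP-812 replicate 3 or GFP replicate 1, 1 rose without GFP-812 replicate 1, and 2 fell without GFP replicate 3. Without GFP replicate 2 the 2 risen genes were MT-ATP8 and MT-ND4L, in place of MT-RNR2 and MT-TP. The median log2 fold change over the 16 was 0.0051, beside 0.0069 over all genes tested. All 16 differences were small: they lay between -0.10 and 0.20 on the log2 scale. The median absolute log2 fold change over all genes tested was 0.104. SEs of the 16 were 0.0313 to 0.0548, and 0.0313 was the lowest of all genes tested. Small differences are thus more easily called in the 16 than in genes with larger SEs, which limits the comparison with the shares over all genes.

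**Figure D2:**
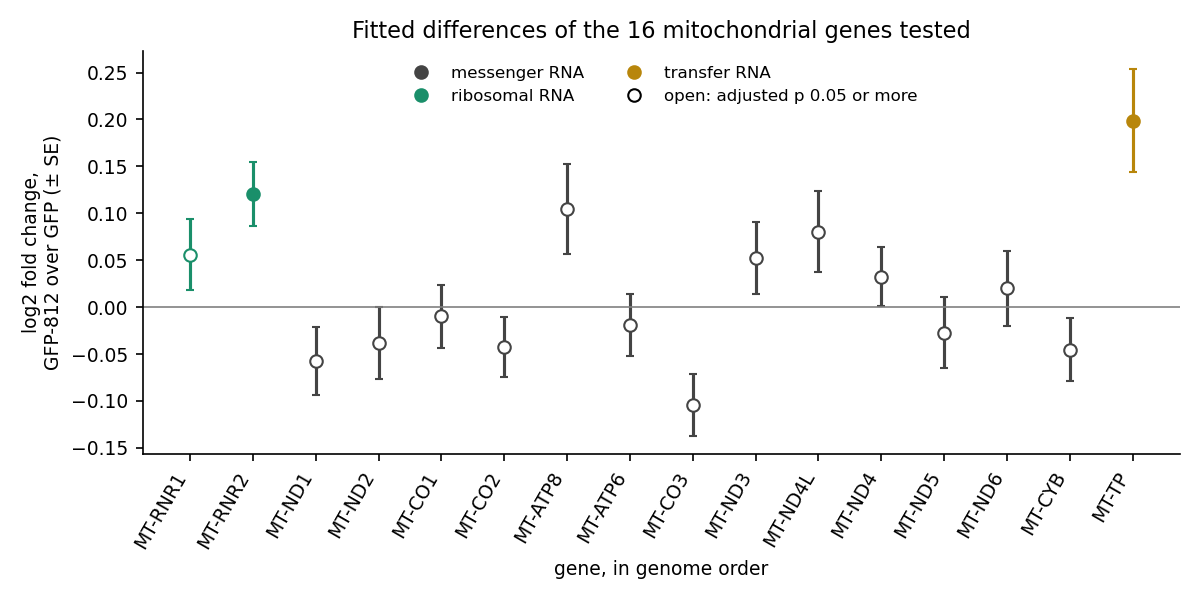
Log2 fold change of GFP-812 over GFP (± SE) for the 16 mitochondrial genes tested, in genome order and coloured by RNA class, with filled points where the adjusted p is under 0.05. MT-RNR2 at 0.12 and MT-TP at 0.20 are filled, and MT-CO3 at -0.10 is the lowest open point.

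Of the 13 messenger RNAs none passed, 5 were fitted above 0 and 8 below 0, and their median was -0.02. MT-CO3, a core subunit of cytochrome c oxidase, came nearest. MT-CO3 (ENSG00000198938) stood at 4582, 4284 and 4298 FPKM with GFP-812 and at 4850.4, 4730.1 and 4696 FPKM with GFP. All 3 GFP-812 libraries were below all 3 GFP libraries, as they were in scaled counts, where 10.8% of all genes tested were lower in every GFP-812 library. The fitted level with GFP-812 was 0.93 of that with GFP and missed the threshold (edgeR log2 fold change -0.10, SE 0.0326, adjusted p = 0.0546). It passed with DESeq2 (adjusted p = 0.0401), with limma-voom (0.00284), with no filter (0.0218) and with total counts as the scale (0.0175). In edgeR it also passed when GFP-812 replicate 1 was left out (0.0196), and likewise for GFP replicate 2 (0.0312) and GFP replicate 3 (0.00255). Its adjusted p over all alternatives ran from 0.00255 to 0.383.

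The other subunits of cytochrome c oxidase did not show that separation. MT-CO1, its catalytic subunit, stood at 6228, 5975 and 5853 FPKM with GFP-812 and at 6545, 5912 and 5880 FPKM with GFP. GFP replicate 1 was the highest and the remaining libraries were mixed (edgeR log2 fold change -0.0097, SE 0.0334, adjusted p = 0.929). MT-CO2, which takes electrons from cytochrome c, was at 6203, 5879 and 5806 FPKM against 6241, 6102 and 6246 FPKM (edgeR log2 fold change -0.04, SE 0.032, adjusted p = 0.545). GFP-812 replicate 1 lay within the GFP range and the other GFP-812 libraries below it.

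Messenger RNAs of complex I, which takes electrons from NADH, went both ways. MT-ND1, MT-ND2 and MT-ND5 had log2 fold changes of -0.06, -0.04 and -0.03, and MT-ND3, MT-ND4, MT-ND4L and MT-ND6 had 0.05, 0.03, 0.08 and 0.02. Their edgeR adjusted p-values were 0.353 to 0.862, with SEs of 0.0313 to 0.0431. MT-ND4L was at 1537, 1476 and 1617 FPKM with GFP-812 and at 1369, 1634 and 1418 FPKM with GFP. GFP replicate 2 was the highest of the 6, and without it MT-ND4L passed (edgeR log2 fold change 0.16, adjusted p = 0.0155, with 0.0155 to 0.835 over all alternatives). MT-ND1 was at 1271, 1218 and 1178 FPKM against 1296, 1337 and 1217 FPKM, with groups that overlap, and it passed only without GFP replicate 3 (edgeR log2 fold change -0.10, adjusted p = 0.0397, with 0.0397 to 0.865 over all alternatives).

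For MT-CYB the levels were 1927, 1809 and 1831 FPKM with GFP-812 and 1937, 1985 and 1874 FPKM with GFP (edgeR log2 fold change -0.05, SE 0.0336, adjusted p = 0.534). The ATP synthase genes differed in sign. MT-ATP6 was at 3442, 3239.7 and 3207 FPKM against 3388, 3363 and 3361 FPKM (edgeR log2 fold change -0.02, SE 0.0333, adjusted p = 0.839). MT-ATP8, a small membrane subunit, was at 1699, 1438 and 1511 FPKM against 1390.2, 1619.8 and 1351 FPKM (edgeR log2 fold change 0.10, SE 0.0481, adjusted p = 0.256). GFP replicate 2 lay among the GFP-812 libraries, and without it MT-ATP8 passed (0.18, edgeR adjusted p = 0.0162, with 0.0162 to 0.856 over all alternatives).

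Both ribosomal RNAs were fitted above 0 and 1 of them rose. MT-RNR2 (ENSG00000210082, 1671 to 3229, plus strand), the RNA of the large ribosomal subunit, stood at 2744, 2916 and 2883 FPKM with GFP-812 and at 2523, 2597 and 2808 FPKM with GFP. GFP replicate 3 lay above GFP-812 replicate 1, so the groups overlapped. The fitted rise was 8.72% (edgeR log2 fold change 0.12, SE 0.0337, adjusted p = 0.0272). The call was lost without GFP-812 replicate 2 (adjusted p = 0.254) or 3 (0.137) and without GFP replicate 1 (0.254) or 2 (0.0701), and it fell to 3.13e-06 without GFP replicate 3. limma on log2(FPKM + 1) did not call it (0.407), and the adjusted p over all alternatives ran from 3.13e-06 to 0.43. Whether the abundance of MT-RNR2 or its capture on oligo(dT) differed was not tested.

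MT-RNR1 (648 to 1601, plus strand), the RNA of the small ribosomal subunit, lies just before MT-RNR2 on the same strand. It was at 1234.3, 1254.7 and 1177 FPKM with GFP-812 and at 1222, 1101 and 1234.6 FPKM with GFP. It did not pass (edgeR log2 fold change 0.06, SE 0.0376, adjusted p = 0.484), and GFP replicate 2 was the lowest. Without that library the log2 fold change of MT-RNR1 was 0.0012, so the size of the difference rests on it, though not the sign. MT-RNR2 had 3.63, 3.8 and 4 counts for each MT-RNR1 count in the GFP-812 libraries and 3.37, 3.85 and 3.72 in the GFP libraries, so that ratio overlapped. Whether MT-RNR2 differed from MT-RNR1 in its response was not tested.

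**Figure D3:**
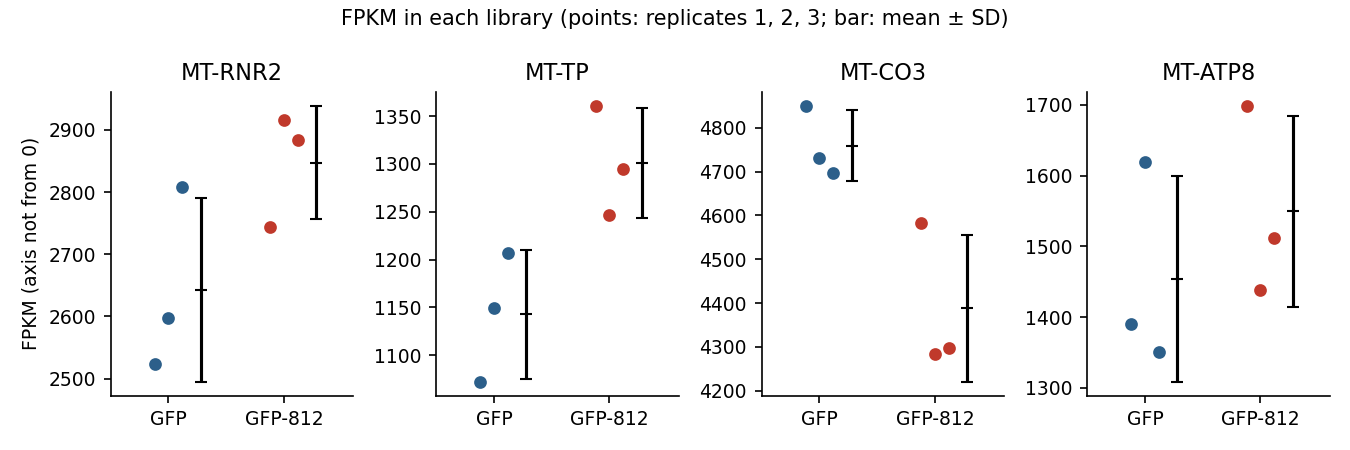
FPKM of MT-RNR2, MT-TP, MT-CO3 and MT-ATP8 in each library, with points for replicates 1, 2 and 3 from left to right and a bar for the mean ± SD of each group (axes do not start at 0). MT-TP is higher and MT-CO3 lower in all 3 GFP-812 libraries, while MT-RNR2 and MT-ATP8 overlap through GFP replicate 3 and GFP replicate 2.

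Transfer RNAs were nearly absent apart from MT-TP. Of the 22 genes 17 had no count in any library, which allows up to 2.27 to 3.57 FPKM each (3 counts per library, covering counting error only). MT-TF, MT-TC, MT-TY and MT-TE had 3, 4, 2 and 1 counts over the 6 libraries together. The 22 genes are 59 to 75 bases long. Most abut a neighbour, as MT-TV does with 0 bases between it and MT-RNR1 or MT-RNR2. Mature transfer RNAs carry no poly(A) tail, so in oligo(dT)-captured RNA the zeros do not show that they were absent from the cells.

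MT-TP, the transfer RNA gene for proline (ENSG00000210196, 15956 to 16023, minus strand), had 1177 to 1551 counts per library. It is the last gene of the chromosome by position, with no annotated gene after it in the table, and MT-TF is the first. Both border the non-coding control region, where transcription starts. Their sequences, from GENCODE 29 and each on its own strand, are given because they share that border and a similar length but had 7947 and 3 counts in all.
MT-TP: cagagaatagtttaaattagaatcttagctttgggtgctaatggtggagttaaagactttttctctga
MT-TF: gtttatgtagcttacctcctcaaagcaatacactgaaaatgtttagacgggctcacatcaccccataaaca
Counts per gene do not tell a transfer RNA from a longer RNA that runs across it, on either strand.

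MT-TP was at 1361, 1247 and 1295 FPKM with GFP-812 and at 1072, 1149.8 and 1207 FPKM with GFP. Each GFP-812 library was above each GFP library, as in scaled counts, where 9.75% of all genes tested were higher in every GFP-812 library. The fitted rise was 14.8% (edgeR log2 fold change 0.20, SE 0.0548, adjusted p = 0.0247). Every setting with all 6 libraries kept it at 0.19 to 0.21. The call was lost without GFP-812 replicate 1 (adjusted p = 0.174), 2 (0.0565) or 3 (0.0837), without GFP replicate 1 (0.227) or 2 (0.0577), and in limma on log2(FPKM + 1) (0.258). Over all alternatives the adjusted p ran from 0.00283 to 0.291.

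Summed over classes, messenger RNA genes took 3.48%, 3.34% and 3.28% of all counts with GFP-812 and 3.51%, 3.45% and 3.36% with GFP. Ribosomal RNA genes took 0.546%, 0.574% and 0.562% against 0.51%, 0.51% and 0.556%. Both shares overlapped between the groups. The 95% Clopper-Pearson intervals of these shares are narrow (3.466% to 3.485% for messenger RNA in GFP-812 replicate 1), cover counting error only, and are smaller than the spread between libraries. The log2 ratio of ribosomal to messenger counts was -2.67, -2.54 and -2.54 in the GFP-812 libraries and -2.79, -2.76 and -2.59 in the GFP libraries. Here too GFP replicate 3 lay within the GFP-812 range, and the means differed by 0.13. In oligo(dT)-captured RNA this ratio depends on poly(A) tails as well as on abundance, so it does not give the ratio in the cells. Transfer RNA genes, in effect MT-TP, took 0.00925%, 0.00852% and 0.00881% against 0.0073%, 0.00782% and 0.00821%, without overlap. NEK1 itself took 0.807% to 0.919% of counts with GFP-812, and leaving it out of the total moved the difference in the share of all mitochondrial genes from -0.0392 to -0.00542 percentage points.

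Within the mitochondrial messenger RNA, complex I genes took 34.6% to 36.6% of counts, cytochrome c oxidase genes 49.3% to 51.7%, ATP synthase genes 7.38% to 7.76% and MT-CYB 6.19% to 6.57%, and each of these shares overlapped between the groups. Set against the messenger total of the same library, 3 of the 16 genes did not overlap between the groups. In scaled counts, a different measure, 20.5% of all genes tested did not overlap. The share over all genes was not computed for the messenger-total measure, so the 3 genes are a description only. By that measure 1 of the 16 was higher in every GFP-812 library and 1 lower. As a share of the messenger total, MT-CO3 was at 10.3%, 10.1% and 10.3% with GFP-812 and at 10.8%, 10.8% and 11.0% with GFP. MT-ND3, a small subunit of complex I, was higher in the GFP-812 libraries, at 1.67%, 1.66% and 1.67% against 1.61%, 1.51% and 1.64%. In FPKM and in scaled counts MT-ND3 overlapped between the groups, and it did not pass (edgeR adjusted p = 0.531). MT-TP counts equalled 0.266%, 0.254% and 0.269% against 0.207%, 0.227% and 0.245% of the messenger total.

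The fitted differences of the messenger RNAs ran with base composition and length, and less with level. None of these relations was among the planned comparisons. Across the 13 genes, GC content ranged from 39.6% (MT-ATP8) to 47.7% (MT-ND1), and the log2 fold change went with it at Pearson r = -0.81 and Spearman rho = -0.81. MT-CO3, the lowest, has 46.6% GC and MT-TP, the highest of the 16, has 33.8%. The Pearson r lay between -0.85 and -0.69 when each library was left out in turn. The genes are not independent replicates, since they share the 6 libraries and, for the plus-strand genes, long precursors. Over 16532 genes with a transcript sequence, NEK1 left out, Pearson r with GC was 0.07 and rho 0.10, beside which the mitochondrial values are a description of 13 genes. With log2 length the 13 genes gave r = -0.67 and rho = -0.49, beside r = -0.09 and rho = -0.12 over 16833 genes with exonic size. With log2 mean FPKM the 13 genes gave r = -0.30 and rho = -0.15. All 4 messenger RNAs under 600 bases were fitted above 0, against 1 of the 9 longer ones, a split made after their values were seen. These 4 took 5.73%, 5.67% and 5.81% of mitochondrial messenger counts in the GFP-812 libraries and 5.17%, 5.72% and 5.43% in the GFP libraries, with GFP replicate 2 within the GFP-812 range. The part of base composition and length in the differences was not tested.

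**Figure D4:**
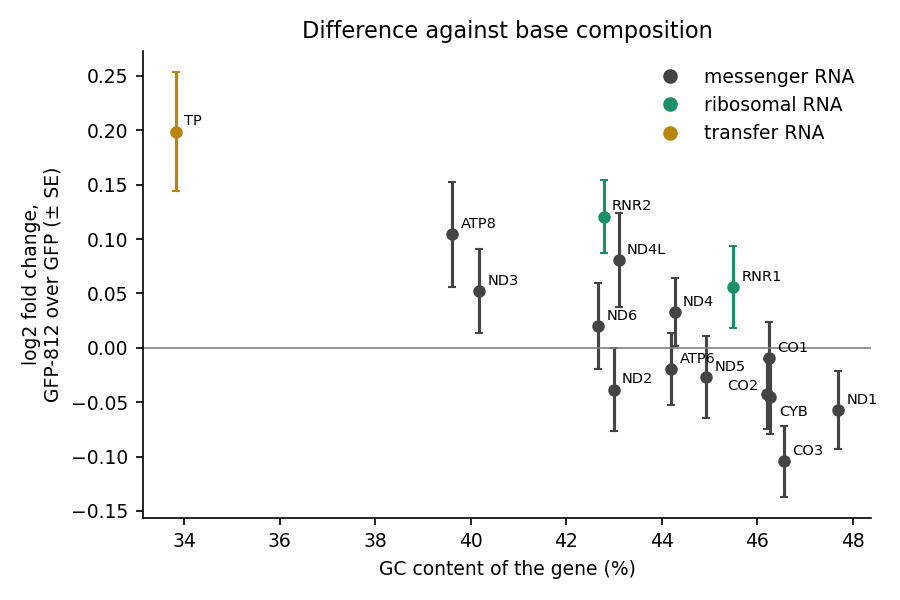
Log2 fold change of GFP-812 over GFP (± SE) against the GC content of the gene (%) for the 16 mitochondrial genes tested, labelled without the MT- prefix and coloured by RNA class. MT-TP at 33.8% GC lies highest and MT-CO3 at 46.6% lowest.

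Copies of mitochondrial genes in the nuclear genome can share reads with them. The table holds 402 rows outside chromosome MT whose symbols name such copies, of which 84 had a count, and together they held 1.02% as many counts as the mitochondrial genes. Of their counts 98.3% fell on 3 pseudogenes in one stretch of chromosome 1. MTATP6P1 (hg38 chromosome 1, 633696 to 634376) is 98.5% identical to MT-ATP6 over 681 bases and had 455.7 to 485.7 FPKM. It held 12.2% to 12.6% of the counts of the pair in every library. MTND2P28 (629640 to 630683, 98.4% identical to MT-ND2) had 48.2 to 57.1 FPKM and MTCO1P12 (631074 to 632616, 98.7% identical to MT-CO1) 11.3 to 13.6 FPKM, or 3.53% to 3.95% and 0.192% to 0.215% of their pairs. MTCO2P12, on the same stretch and 98.2% identical to MT-CO2, had 5 to 19 counts per library, and MTND4P12 on chromosome 5, 95.7% identical to MT-ND4, had 13 to 22.

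All 5 copies were tested and none passed. MTATP6P1, MTND2P28 and MTCO1P12 had log2 fold changes of -0.02, -0.02 and 0.07 (edgeR adjusted p 0.77 to 0.928), beside -0.02, -0.04 and -0.0097 for MT-ATP6, MT-ND2 and MT-CO1. Adding the copies' counts to those 3 genes changed their log2 fold changes to -0.02, -0.04 and -0.0095. The number of risen and fallen mitochondrial genes stayed at 2 and 0. MT-RNR2 and MT-TP, the risen genes, received no counts in that fit, so it could not show whether copies affect their calls. Since reads of near-identical copies can be split between them, single values of MT-ATP6 are the most exposed.

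The nuclear genes that copy, transcribe, process and translate the mitochondrial genome were followed as 5 lists with 76 genes, of which 75 were tested. Of these, 0 rose and 2 fell, beside 1.18% and 2.67% of all genes tested, so the fallen share was about that of all genes. The median log2 fold change over the 75 was -0.02. Among 10 transcription genes none passed. POLRMT, the mitochondrial RNA polymerase, had 7.29 ± 0.516 FPKM with GFP-812 and 6.51 ± 0.626 FPKM with GFP (SD, n = 3), a log2 difference of 0.17 that did not pass (SE 0.0777, edgeR adjusted p = 0.238). TFAM, which packages mitochondrial DNA and helps start transcription, had 43 ± 1.82 FPKM with GFP-812 and 46.2 ± 2.4 FPKM with GFP (SD, n = 3). Its log2 difference of -0.09 did not pass (SE 0.0432, edgeR adjusted p = 0.27), but it passed without GFP replicate 3 (-0.13, adjusted p = 0.0267, with 0.0267 to 0.734 over all alternatives).

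Of 12 genes of mitochondrial DNA replication and maintenance 1 fell. TOP3A, a topoisomerase with a mitochondrial form that separates newly copied genomes, was at 6.38, 6.8 and 6.54 FPKM with GFP-812 and at 7.69, 7.53 and 7.79 FPKM with GFP, without overlap (edgeR log2 fold change -0.21, SE 0.0597, adjusted p = 0.0323). In scaled counts TOP3A was also lower in every GFP-812 library, as were 10.8% of all genes tested. The TOP3A call was lost without any 1 of GFP-812 replicates 1, 2 and 3 or GFP replicate 1 (adjusted p = 0.128, 0.0892, 0.152 and 0.13), with upper-quartile scaling (0.0521) and in both limma fits, and over all alternatives the adjusted p ran from 0.0183 to 0.225.

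Of 24 genes of mitochondrial RNA processing and decay 1 fell. Of the same 24, 18 were fitted below 0, beside 8106 of the 16834 genes tested, and the median over the list was -0.04. PDE12, an enzyme known to remove poly(A) tails from mitochondrial RNA, was at 14.2, 13.8 and 14 FPKM with GFP-812 and at 17.2, 16 and 15.6 FPKM with GFP. All GFP-812 libraries were below all GFP libraries, also in scaled counts, where 10.8% of all genes tested were so. The PDE12 difference passed (edgeR log2 fold change -0.21, SE 0.0471, adjusted p = 0.00441), and the call was lost in both limma fits and without GFP-812 replicate 2 (0.0783) or GFP replicate 1 (0.108). The adjusted p of PDE12 over all alternatives ran from 0.000257 to 0.225. LRPPRC, which stabilises mitochondrial messenger RNA, had 15 ± 0.232 FPKM with GFP-812 and 15.5 ± 0.0702 FPKM with GFP (SD, n = 3), a log2 difference of -0.03 (SE 0.0364, edgeR adjusted p = 0.732).

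Of 18 genes that modify mitochondrial ribosomal and transfer RNA 17 were tested and none passed, and of 12 translation factors none passed. The smallest p on each of these lists belonged to CDK5RAP1, a transfer RNA modifying enzyme (-0.16, SE 0.0649, edgeR adjusted p = 0.177), and to OXA1L, which inserts mitochondrially made proteins into the inner membrane (0.09, SE 0.0503, adjusted p = 0.399). Without GFP replicate 3 the number of fallen genes over the 5 lists was 4, and without GFP-812 replicate 2 or GFP replicate 1 it was 0.

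The respiratory complexes are built from subunits of both genomes, and their nuclear subunit genes were set beside the mitochondrial ones. Of 37 nuclear genes of complex I 3 rose, of 9 of complex III 1, of 11 of cytochrome c oxidase (complex IV) 3 and of 17 of ATP synthase 1, and none fell, beside the 1.18% and 2.67% of all genes tested. Their median log2 fold changes were 0.08, 0.07, 0.13 and 0.09. NDUFB4 and NDUFS5 of complex I had log2 fold changes of 0.21 and 0.17, and NDUFA1 had 0.19. UQCRH of complex III was at 0.16. COX6C, COX7B and COX4I1 of complex IV were at 0.19, 0.16 and 0.15, and ATP5MC1 of ATP synthase was at 0.26. Their edgeR adjusted p-values were 0.0132 to 0.0489. In the fits without 1 library, each of these 8 calls was lost in at least 3 of 6, and none of the 8 was lost without GFP replicate 3. Both limma fits on log2 FPKM lost all 8 (adjusted p 0.22 to 0.366). DESeq2 lost NDUFS5 (0.0691), COX7B (0.0572) and COX4I1 (0.0577), and so did total counts as the scale (0.0609, 0.0704 and 0.0728). COX7B and COX4I1 were also lost with median-of-ratios scaling (0.0512 and 0.0515) and with no filter (0.0812 and 0.0733).

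**Figure D5:**
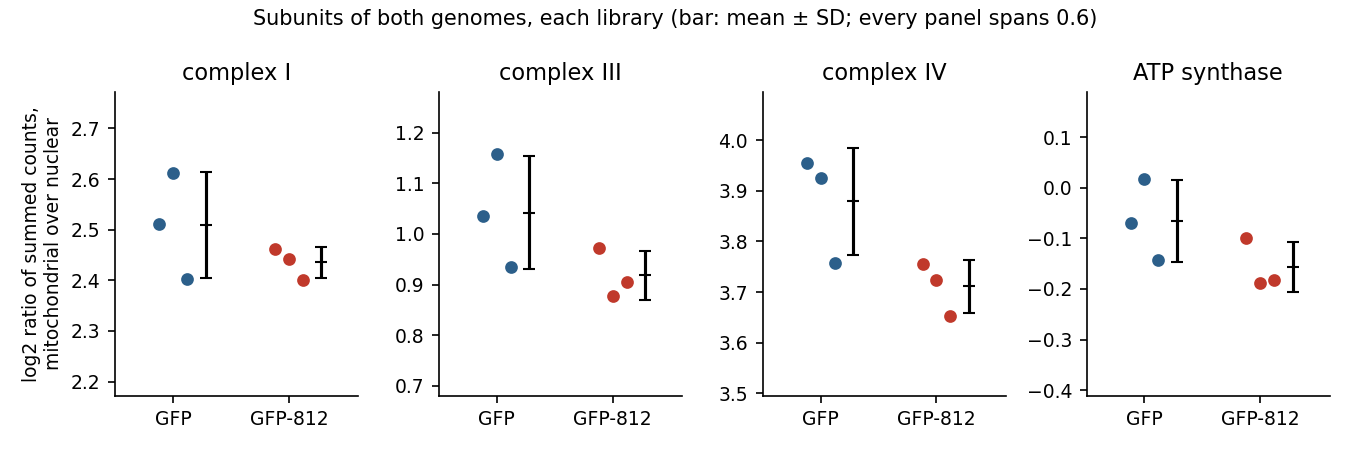
Log2 ratio of summed counts of mitochondrial over nuclear subunit genes for each respiratory complex, with points for replicates 1, 2 and 3 from left to right and a bar for the mean ± SD of each group; each panel spans the same height. The ratio of complex IV is lower in all 3 GFP-812 libraries, and those of complexes I and III and ATP synthase overlap.

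The log2 ratio of mitochondrial to nuclear subunit counts in complex IV was 3.76, 3.72 and 3.65 with GFP-812 and 3.95, 3.93 and 3.758 with GFP. The groups did not overlap, but GFP replicate 3 lay just above GFP-812 replicate 1, at 3.758 against 3.756. The means were 3.71 ± 0.0528 and 3.88 ± 0.106 (SD, n = 3 each). For complex I the means were 2.44 ± 0.0313 and 2.51 ± 0.105, for complex III 0.92 ± 0.0483 and 1.04 ± 0.111, and for ATP synthase -0.16 ± 0.0493 and -0.07 ± 0.081 (SD, n = 3 each), with overlap in each. In complex III, for example, GFP replicate 3 (0.94) lay between GFP-812 replicate 1 (0.97) and the other GFP-812 libraries. The ratio was lower in the mean of the GFP-812 libraries for all 4 complexes, also without each library in turn, but its size moved. Without GFP replicate 2 the difference went from -0.07 to -0.02 for complex I, from -0.12 to -0.07 for complex III and from -0.09 to -0.05 for ATP synthase. Without GFP replicate 3 that of complex I was -0.13. It sums genes chosen as members, so no p is given.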

How the data were processed

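RNA of 293T cells given a GFP-812 or a GFP plasmid was read in 3 libraries each, grouped by the sample titles. The authors deposited 1 table with raw counts per gene and, per the file headers, FPKM for each library. Dividing counts by exonic size and library total returned 100% of the FPKM within 0.0051. The submitters' processing notes name hg38, HISAT2 2.2.1, HTSeq 0.6.1, cutadapt 1.9.1 and FastQC 0.10.1. The annotation release is not stated and the strand setting is not given in the sources used here.

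For the tests, counts went into edgeR 4.0.16 in R 4.3.3 (filterByExpr, TMM, group as the single term, quasi-likelihood F test, Benjamini-Hochberg over all genes tested, threshold 0.05). The code was first run on counts simulated from edgeR's own fitted means and dispersions, which cannot test whether that model holds for these data. SEs come from the F statistic. Alternatives were DESeq2 1.42.0, limma 3.58.1, other filters and scalings, a block for replicate number, and fits without each library. limma-voom and adding nuclear copies were chosen after seeing the data. Members and lists were chosen with earlier results of these data known. All 37 mitochondrial genes are accounted for. Of each nuclear list the up to 4 called genes of smallest p, or else the 1 gene of smallest p, are named, with POLRMT, TFAM, LRPPRC and NEK1 always, and the 5 nuclear copies of highest FPKM. All 170 list genes matched, and the 37 sequences matched the table by gene ID and length.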

Additional observations from a re-analysis of the deposited data

How the results depend on the processing

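The number of risen mitochondrial genes stayed at 2 under 10 alternatives fitted on all 6 libraries and was 0 in limma on log2(FPKM + 1) and on log2(FPKM + 0.1). Among the 10, adding nuclear copies gave no counts to MT-RNR2 or MT-TP. The number of fallen ones, 0 in edgeR, was 1 with no filter beyond 1 count, total counts alone, DESeq2 and limma-voom. Without each library in turn, risen mitochondrial genes numbered 0 to 2 and fallen ones 0 to 2. An equal number can hide different genes, since MT-ATP8 and MT-ND4L replaced MT-RNR2 and MT-TP without GFP replicate 2. The fallen nuclear genes of mitochondrial gene expression, 2 in edgeR, numbered 1 with upper-quartile scaling, 0 in both limma fits and 0 to 4 without each library. Among genes that were not called, the log2 fold change of MT-CO1 changed sign with upper-quartile scaling (0.0058). Without each library the log2 fold changes ran from -0.0837 to 0.0166 for MT-ND2, -0.0403 to 0.0459 for MT-CO1, -0.0569 to 0.0055 for MT-ATP6, -0.0787 to 0.0157 for MT-ND5, -0.0122 to 0.072 for MT-ND6 and -0.0922 to 0.0259 for MTND2P28. The difference in the share of all mitochondrial counts ran from -0.0881 to 0.0027 percentage points. The causes were not tested. With the replicate number as a block 2 mitochondrial genes rose (MT-RNR2 adjusted p = 0.0155, MT-TP 0.0138) and 0 fell. Libraries with the same number deviated together at r = 0.0318, -0.0102 and 0.0061 over all genes tested. Pairs with different numbers ran from -0.0318 to 0.0264, so a shared number showed no shared deviation. The labels do not state whether such libraries were prepared together, and these values cannot decide it. Each mitochondrial gene tested had at least 1177 counts in every library.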
